A study of Mus musculus with 53 samples.

Results

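The target effects of the same vector pool were compared between 13 KLTC and 12 KPTC mice, which are 25 of the 53 mice of the series. They were chosen by their labels, as all mice of these genotypes given the pool Lenti-sgTS/Pool and followed for 15 weeks. In the common shorthand for these strains, T denotes a Cre-activated fluorescent reporter and C a Cas9 allele, which both groups share together with the allele K, while L and P are alleles that let Cre delete Lkb1 and p53. The labels give these letters only, and the age of the mice was not given in the sources used here. Lentivirus carrying Cre, an sgRNA and a random barcode was put into the lungs through the trachea, so each tumour arose in a cell that the virus had entered. The barcodes were amplified by PCR from DNA of the whole lung and sequenced, and the authors' table lists 1 line per mouse, sgRNA target and barcode with the absolute number of cells of that tumour. No RNA was measured, so the labelled lung epithelium could not be checked against its markers, and editing of the target was not measured in single tumours.

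Lkb1 is a kinase that activates the AMPK family and restrains growth when energy is short. p53 is a transcription factor that stops division or triggers death after DNA damage or oncogene stress. A tumour suppressor can restrain growth in one such background and have little left to restrain in the other, and the question set by the design is which of 11 targeted suppressors act differently where Lkb1 or p53 is gone. The sgRNAs against P53 in KPTC mice and against Lkb1 in KLTC mice hit a gene that the genotype already deletes. All 11 target labels were found in the RefSeq mouse gene table (Lkb1 and P53 through synonyms), and sgRNAs without a functional target are merged under the label Inert.

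The barcode is what makes a tumour countable, and the largest tumours show how it behaves across mice. Each barcode has 21 bases, and the capitals mark the 6 positions at which over 90% of all barcodes carry the same base. The tumours printed are the largest of Setd2, Lkb1 and Rb1 in each genotype, because these labels separate the genotypes most at the top of the size range.
Setd2 in KLTC: AAtccacTTcattaAAccggg
Setd2 in KPTC: AAgtagtGTttgggAAaccac
Lkb1 in KLTC: AAgctgcTTgctggAAtgacc
Lkb1 in KPTC: AAcccatTTgtgttAAatacc
Rb1 in KLTC: AAcgggtTCgataaCTtctat
Rb1 in KPTC: AAcacgtTTtatgcAAcggcc
The Setd2 tumour AAtccacTTcattaAAccggg had 3.43e+06 cells in KLTC replicate 4, and this pair of target and barcode appeared in 26 other mice, 6 of them followed for 9 weeks, at a median of 1282 cells. The Setd2 tumour of KPTC, AAgtagtGTttgggAAaccac, had 4.66e+06 cells in replicate 9 and was listed in 16 other mice. The Lkb1 tumour AAgctgcTTgctggAAtgacc had 7.63e+06 cells in KLTC replicate 12 and was listed in 12 other mice at a median of 9033 cells. Its KPTC counterpart AAcccatTTgtgttAAatacc had 1.09e+07 cells in replicate 12 and was listed in 11 others. The largest tumour of all 25 mice, the Rb1 tumour AAcgggtTCgataaCTtctat of KLTC replicate 12, had 1.63e+08 cells and was listed in 12 other mice at 22313 to 415823 cells. The Rb1 tumour AAcacgtTTtatgcAAcggcc had 6.68e+06 cells in KPTC replicate 6 and was listed in 10 others. A barcode listed at a very large size in one mouse was thus also listed at far smaller sizes elsewhere, and why was not tested.

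KLTC mice held 723 to 15067 listed tumours (median 2856) and KPTC mice 3553 to 30646 (median 10239), 185370 in all, each above 500 cells. The smallest listed tumour of a mouse had 501 to 611 cells in KLTC and 510 to 982 cells in KPTC, so the lower cut was not equal in all mice. A target had as few as 15 tumours in a KLTC mouse and never fewer than 119 in a KPTC mouse, so high percentiles rest on fewer tumours in KLTC. In KLTC mice 10.5% to 62.6% of tumours carried a target and barcode that some other mouse listed at a size at least 10 times larger, against 4.31% to 9.76% in KPTC mice, and these are called matched tumours below. For 80.7% of the matched KLTC tumours the largest listing was in another KLTC mouse. For matched KPTC tumours it was in another KPTC mouse for 30.2%, in a KLTC mouse for 23.8% and in a mouse of the further genotype KTC for 33.2%. All 252 KLTC tumours of at least 1e+06 cells, and 95.3% of the 170 in KPTC, were listed in some other mouse at any size, so leaving out every shared barcode removes nearly all of the largest tumours. The 18 mice followed for 9 weeks were given only the inert or the Setd2 vector, so only Setd2 and Inert tumours could share a target and barcode with them. This was so for 69.9% of Setd2 tumours in the median KLTC mouse and 50.9% in the median KPTC mouse, and for 7.98% and 5.78% of Inert tumours. The share of Setd2 tumours that were matched was 49.7% and 20.8%, that of APC tumours 42.4% and 13.9%, and that of Inert tumours 28.7% and 7.65%. Matched tumours lay mostly in the low size classes. In KLTC 36.3% of tumours of 500 to 1000 cells were matched and 0.673% of those of 100000 to 1e+06 cells, against 8.73% and 0.412% in KPTC. Leaving them out thus removes mainly small tumours, in unequal shares by target and genotype. How far this moved the effects was not tested. Mouse names open with the letters IW in 7 mice of each genotype, with ZR in 6 KLTC mice and with no letters in 5 KPTC mice. The meaning of these letters was not given in the sources used here, and the IW mice alone were used to compare the genotypes within 1 kind of name. The mice carry no statement of litter or cage, so the p-values treat each mouse as independent and exchangeable. Among these mice ZR names occur only in KLTC and names without letters only in KPTC. Over all mice these kinds of name therefore cannot be told apart from genotype.

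As the size effect of a target, its log-normal mean tumour size was divided by that of the inert tumours in each mouse and put on the log2 scale. Setd2 and Lkb1 effects were lower in KLTC than in KPTC mice, and the APC effect was higher. These 3 of the 11 targets passed the test (27.3%), which was a two-sided permutation test of the mouse labels with Benjamini-Hochberg adjustment over the 11 targets and a threshold of 0.05. Of the differences that did not pass, 5 lay above 0 and 3 below, and the median over all 11 was 0.02. The groups overlapped for every target.

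Among the genes of chromatin and RNA processing, 1 of 3 was lower in KLTC than in KPTC and 0 were higher, against 2 and 1 of all 11 targets. Setd2, the histone methyltransferase that marks the bodies of transcribed genes, had effects from -0.83 to 0.78 (median 0.12) in KLTC mice and from 0.29 to 1.48 (median 0.55) in KPTC mice. All 12 KPTC mice were above 0, against 9 of 13 KLTC mice. The means were 0.12 ± 0.50 (SD, n = 13) and 0.69 ± 0.38 (SD, n = 12), so Setd2 tumours were 1.09 times as large as inert tumours in KLTC and 1.62 times in KPTC. The difference was -0.57 (SE 0.18, adjusted p = 0.0132, permutation test). Arid1a, a subunit of the SWI/SNF chromatin remodeller, had means of 0.34 ± 0.81 and 0.16 ± 0.11 and did not pass (adjusted p = 0.559). Rbm10, a regulator of splicing, had 0.12 ± 0.65 and 0.10 ± 0.19, a difference of 0.02 (SE 0.19). The Setd2 difference turned to 0.14 (SE 0.26) without matched tumours, where the KLTC mean was 1.07 ± 0.82 and the KPTC mean 0.92 ± 0.44. Its adjusted p ranged from 0.000165 to 0.761 over all settings tried.

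Among signalling and metabolic genes, Lkb1 was lower in KLTC, APC was higher, and Smad4 and Keap1 did not pass. Lkb1 effects ran from -1.29 to 0.998 (median -0.28) in KLTC mice, where the genotype already deletes the gene, and from 0.08 to 0.96 (median 0.39) in KPTC mice. Only KLTC replicates 3, 5 and 9 were above 0, whereas all 12 KPTC mice were. The means were -0.27 ± 0.65 and 0.40 ± 0.25, a difference of -0.67 (SE 0.19, adjusted p = 0.0132, permutation test). APC, a scaffold protein needed to destroy beta-catenin, had effects from 0.28 to 1.66 (median 0.43) in KLTC mice and from 0.02 to 0.36 (median 0.26) in KPTC mice. Every mouse of both genotypes was above 0, and 9 of the 13 KLTC mice were above the highest KPTC mouse. APC tumours were 1.59 times as large as inert tumours in KLTC (0.67 ± 0.46) and 1.17 times in KPTC (0.22 ± 0.11), a difference of 0.45 (SE 0.13, adjusted p = 0.00418, permutation test). Smad4, which carries TGF-beta signals to the nucleus, had means of 0.29 ± 0.50 and 0.14 ± 0.11. Keap1, the adaptor that targets the antioxidant regulator Nrf2 for degradation, had 0.25 ± 0.58 and 0.05 ± 0.20.

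Neither the 3 genes of the p53 pathway and DNA damage nor the 2 of the cell cycle, which share Cdkn2a, differed in size effect by this test. P53 itself had a mean of -0.18 ± 0.81 in KLTC mice, with 7 of 13 above 0, and of -0.03 ± 0.08 in KPTC mice, where the gene is already deleted. The difference was -0.15 (SE 0.23, adjusted p = 0.637). ATM, a kinase that signals DNA breaks, had -0.03 ± 0.59 and 0.14 ± 0.14. Cdkn2a, which encodes inhibitors of CDK4/6 and of Mdm2, had 0.34 ± 0.56 and 0.19 ± 0.20. Rb1, which holds cells back from S phase, had 0.27 ± 0.86 in KLTC mice, from -1.53 to 1.46, and 0.49 ± 0.17 in KPTC mice, from 0.30 to 0.82. Its difference of -0.22 (SE 0.24, adjusted p = 0.559) was smaller than the spread between KLTC mice.

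**Figure D1:**
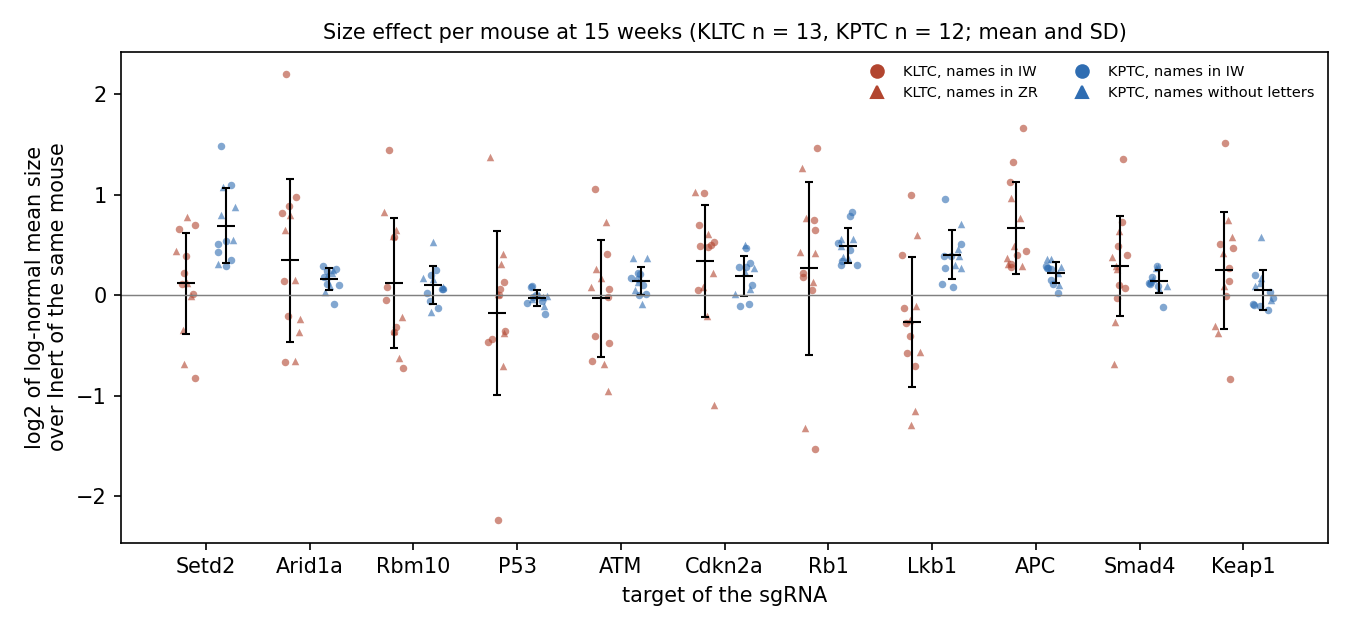
Size effect of each target per mouse, with the log2 of the log-normal mean size over that of Inert on the vertical axis and the targets along the horizontal axis, with 1 dot for each mouse, whiskers for mean and SD, and dot shapes for the opening letters of the mouse names. KLTC points scatter widely for most targets, all 13 APC points of KLTC lie above 0, and 10 of the 13 Lkb1 points of KLTC lie below it.

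In the mice with IW names only (7 against 7, exact permutation over 3432 relabellings), APC alone passed, with a difference of 0.59 (adjusted p = 0.0128). There Setd2 had -0.49 and Lkb1 -0.48 (adjusted p = 0.165 each). At minimum sizes of 1000 and 1500 cells the Lkb1 difference was -0.87 and -0.99, that of Setd2 was -0.90 and -1.08, and that of APC was 0.50 and 0.60, and all passed. At a minimum of 5000 cells, where 1 KLTC mouse drops out for too few tumours of these targets, Lkb1 (-0.99) and APC (0.50) passed and Setd2 (-0.63, adjusted p = 0.347) did not. Without matched tumours the APC difference was 1.19 (SE 0.19, adjusted p = 0.000165) and the Lkb1 difference -0.53 (adjusted p = 0.0977). The adjusted p over all settings ran from 0.00022 to 0.949 for APC and from 0.000165 to 0.761 for Lkb1, with the highest where medians replaced the means.

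Over all listed tumours, the differences that passed lay at the top of the size range. Over 7 percentiles and 11 targets, 5 of 77 differences passed (6.49%), all lower in KLTC and all at the 95th or 99th percentile, and 12 had an unadjusted p under 0.05. At the 95th percentile 2 of 11 passed (18.2%) and at the 99th 3 of 11 (27.3%), while from the 50th to the 90th none did by permutation test, with 3 at an unadjusted p under 0.05. At the median, the mean effects of the 11 targets lay between -0.09 and 0.13 in KLTC and between -0.02 and 0.14 in KPTC. At the 99th percentile they lay between -0.49 and 0.36 in KLTC and between -0.19 and 2.01 in KPTC, and 10 of the 11 differences were below 0, with a median of -0.83. The median KLTC mouse had 98 Rbm10 tumours and 751 inert tumours, against 347 and 2869 in KPTC. The 99th percentile of a rare target in KLTC therefore lies beside its largest tumour, which can lower the ratio to Inert. How far this lowered the KLTC values was not tested. Where along the range the calls fell changed with the tumours counted. At a minimum of 1500 cells Setd2 (-0.998) and Lkb1 (-0.71) also passed at the 80th percentile. At 5000 cells Lkb1 passed from the 60th (-0.58) to the 90th (-1.63) and no target at the 95th or 99th, where the lowest adjusted p was 0.0915 (Lkb1 at the 95th, permutation test). Without matched tumours Setd2 was higher in KLTC at the 60th percentile (0.57, adjusted p = 0.031).

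Setd2 at the 99th percentile ran from -2.05 to 1.28 (median -0.12) in KLTC mice and from 0.42 to 3.98 (median 1.88) in KPTC mice. All 12 KPTC mice and 6 of 13 KLTC mice had Setd2 tumours larger than the inert tumours at that percentile. The mean of 2.01 ± 0.995 in KPTC is a 4.03-fold larger tumour, against 0.92 times the inert size in KLTC (-0.11 ± 1.02), and the difference was -2.13 (SE 0.40, adjusted p = 0.00116, permutation test). At the 95th percentile the Setd2 difference was -1.24 (SE 0.36, adjusted p = 0.00832), with a mean of 1.36 ± 0.80 in KPTC.

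Lkb1 at the 99th percentile ran from -1.92 to 1.67 (median -0.31) in KLTC mice and from 0.52 to 3.13 (median 1.78) in KPTC mice. The means were -0.44 ± 0.94 and 1.77 ± 0.74, so the target that is already gone in KLTC gave tumours 3.42 times the inert size in KPTC, and the difference was -2.21 (SE 0.34, adjusted p = 0.00116, permutation test). At the 95th percentile it was -1.03 (SE 0.25, adjusted p = 0.00366). Rb1, which did not pass on the mean size, ran at the 99th percentile from -2.61 to 1.74 (median 0.40) in KLTC and from 0.83 to 3.84 (median 1.56) in KPTC. Its means of 0.19 ± 1.05 and 1.85 ± 0.98 correspond to 1.14 and 3.59 times the inert size, and the difference was -1.65 (SE 0.41, adjusted p = 0.00282, permutation test). KLTC replicates 7 and 1 were the lowest for Rb1, and in KPTC every mouse was above 0 for Setd2, Rb1 and Lkb1. Without matched tumours the differences at the 99th percentile were -2.30 for Setd2, -2.23 for Lkb1 and -1.57 for Rb1, and all passed, while at a minimum of 5000 cells they were -0.21, -0.65 and 0.02 and none did. Without every shared barcode Lkb1 (-1.41) and Rb1 (-1.24) passed and Setd2 (-1.23, adjusted p = 0.213) did not, and within IW names the differences of -2.30, -2.27 and -2.02 had an adjusted p of 0.0785 each (exact permutation over 77 tests).

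APC took another course. Its mean in KLTC was 0.12 at the median, 0.92 ± 0.90 at the 90th percentile and 0.36 ± 0.37 at the 99th, whereas in KPTC it went from 0.14 to 0.26 ± 0.14 and 0.59 ± 0.53. The difference at the 90th percentile was 0.67 (SE 0.25, adjusted p = 0.164) and at the 99th -0.23 (SE 0.19, adjusted p = 0.739), so no single percentile passed over all tumours. Without KLTC replicate 8 the 90th did, at 0.75 (adjusted p = 0.0372). Without matched tumours APC passed by permutation test at each of the 50th to the 90th percentiles, with differences from 0.80 to 1.03 and adjusted p from 0.00154 to 0.0421. That filter leaves out a larger share of APC than of Inert tumours in KLTC (42.4% and 28.7% in the median mouse). How far this raised the APC ratio was not tested. Without every shared barcode it passed at none of these 5, and the difference at the median was -0.06. Of the targets with little change along the range in KPTC, P53 had -0.08 ± 1.08 in KLTC and -0.19 ± 0.49 in KPTC at the 99th percentile. Cdkn2a (-0.38 and 0.78), Rbm10 (-0.49 and 0.52) and Arid1a (-0.40 and 0.38) had differences of -1.16, -1.01 and -0.78 there that did not pass over the 77 tests.

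**Figure D2:**
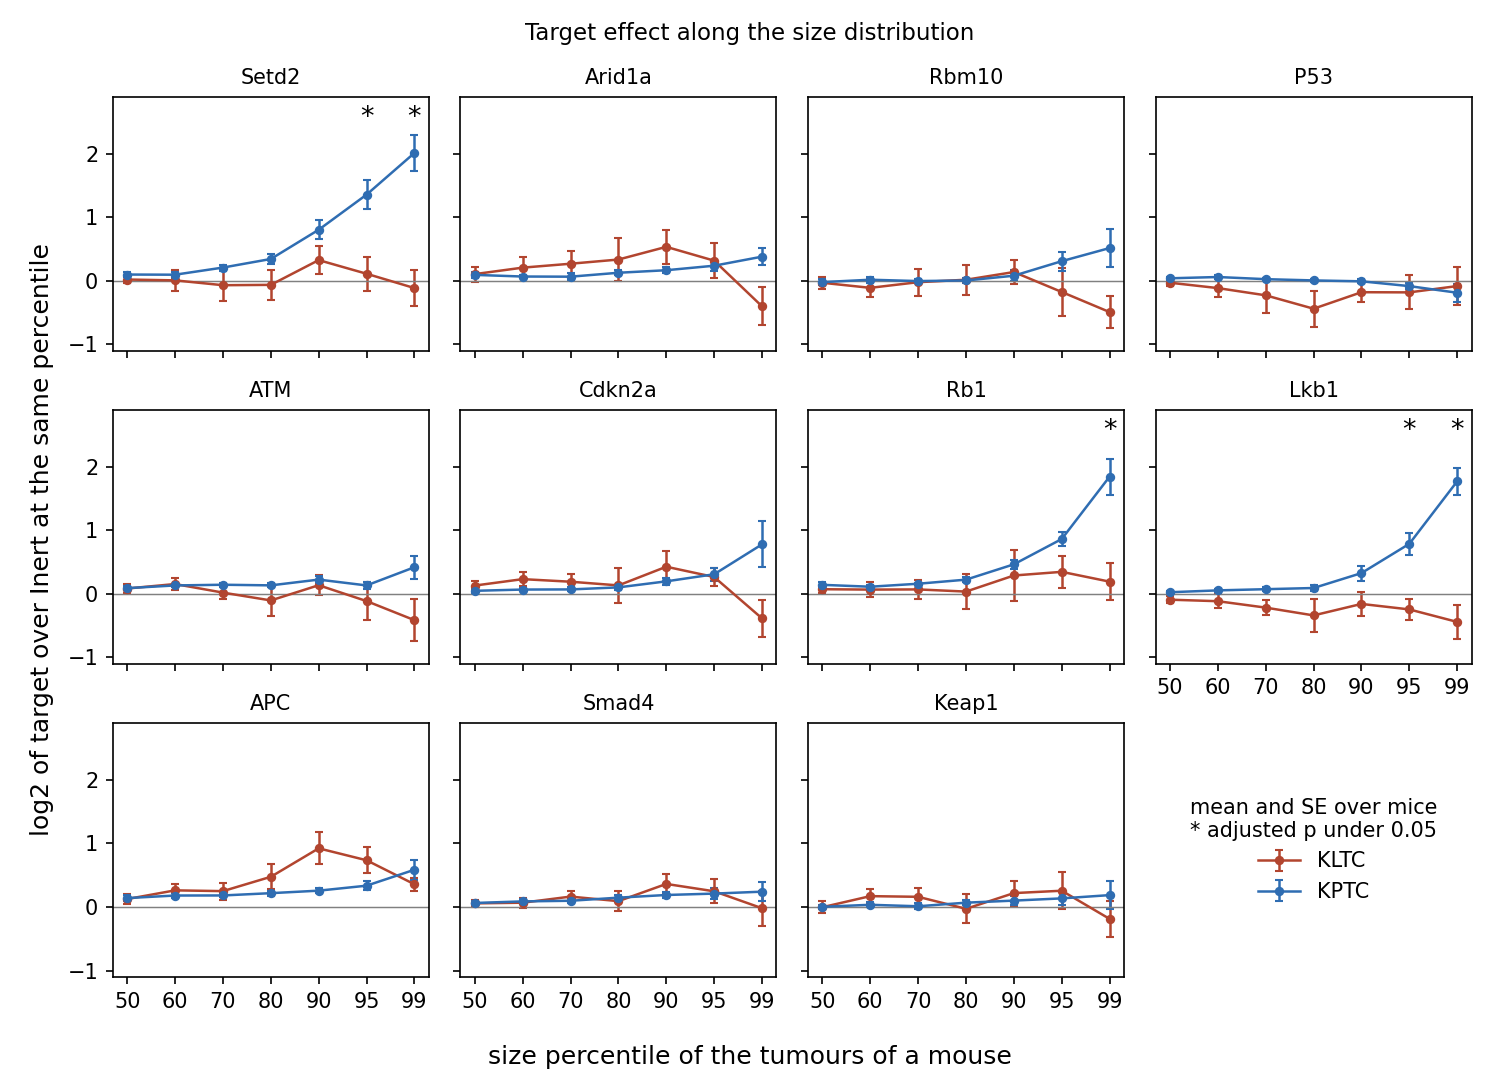
Mean effect of each target with its SE over mice (vertical axis, log2 of the target over Inert at the same percentile) along the size percentiles of a mouse (horizontal axis), with a line per genotype and asterisks at adjusted p under 0.05. In KPTC the Setd2, Rb1 and Lkb1 lines climb to 2.01, 1.85 and 1.77 at the 99th percentile, while the KLTC lines of these targets stay between -0.44 and 0.35.

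Inert tumours, the denominator of these ratios, differed between the genotypes themselves in the same stretch of the range. Their 99th percentile ran from 54009 to 1.90e+06 cells (median 541046) in KLTC mice and from 17521 to 129850 cells (median 36245) in KPTC mice. The geometric means were 440661 and 40288 cells, which is 10.9-fold more in KLTC (log2 difference 3.45, SE 0.54, adjusted p = 0.00012, permutation test, adjusted over 6 statistics). The 90th and 95th percentiles were 7.24-fold and 11.2-fold larger in KLTC, and the size that 1 in 1000 inert tumours exceed was 2.60-fold larger (adjusted p = 0.0378). The last did not pass without any one of KLTC replicates 4, 5, 10, 11, 12 or 13 or KPTC replicates 2, 3, 4 or 5. The median KLTC mouse had 751 inert tumours, whereas every KPTC mouse had at least 1069. In most KLTC mice the size that 1 in 1000 exceed thus lies beside the largest inert tumour. The median inert tumour had 1221 cells in KLTC and 1065 in KPTC (adjusted p = 0.392), and the largest inert tumour of a mouse had a geometric mean of 2.24e+06 and 2.68e+06 cells (adjusted p = 0.732). In all, 4 of 6 statistics passed, and the genotypes overlapped in each. Among IW mice none of the 6 passed by exact permutation (3 at an unadjusted p under 0.05), with 2.35 at the 99th percentile. In KLTC the ZR mice had higher inert tails (mean log2 of 19.57 ± 0.67, n = 6, at the 99th percentile) than the IW mice (18.04 ± 1.96, n = 7), which was not tested. How much of the change in a target's ratio at these percentiles comes from its inert tumours cannot be told apart from the target itself by the ratio.

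**Figure D3:**
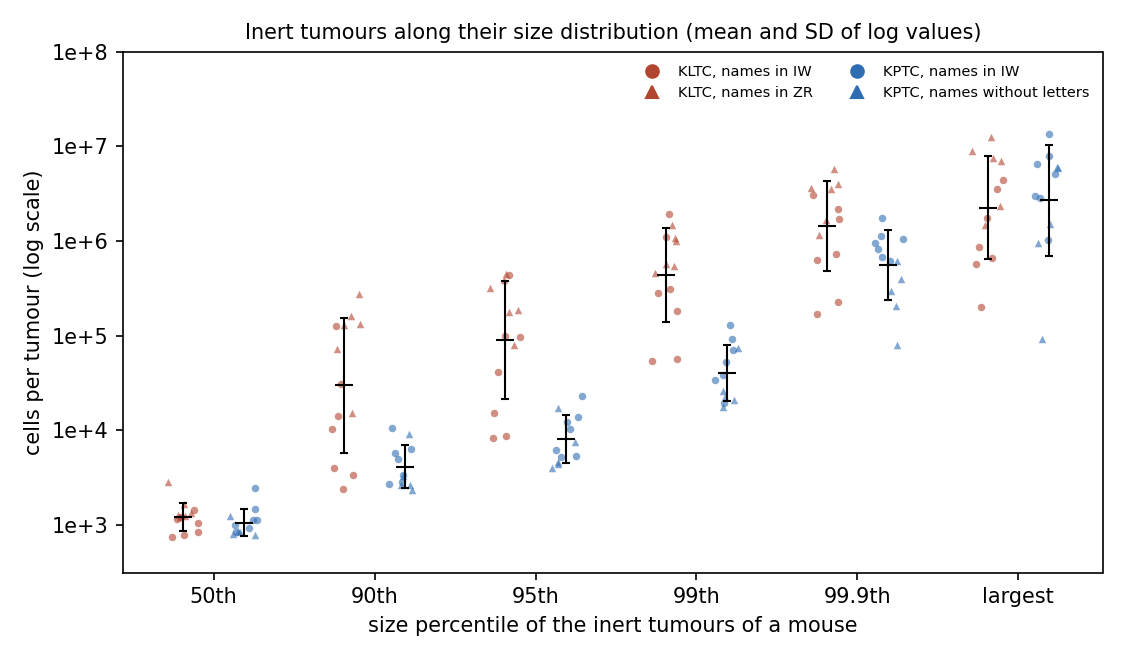
Size of the inert tumours of each mouse at 5 percentiles and at the largest tumour (horizontal axis), in cells on a log scale (vertical axis), with 1 dot for each mouse and whiskers for mean and SD of the log values. The geometric means lie close at the 50th percentile (1221 and 1065 cells) and differ at the 90th to the 99th, where single mice of the genotypes still overlap. They come close again at the largest tumour.

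Sizes counted without a reference show the same stretch. At least 100000 cells were reached by 4.93% of inert tumours in the median KLTC mouse and by 0.584% in the median KPTC mouse. For APC these shares were 9.38% and 0.629%, for Setd2 6.01% and 1.48%, for Rb1 7.22% and 1.33%, and for Lkb1 7.87% and 1.56%. These shares are given without a test. In KPTC those for Setd2, Rb1 and Lkb1 were above that of Inert, Arid1a (0.722%), P53 (0.452%) and Smad4 (0.458%). Cdkn2a (1.03%) also lay above Inert, as did Arid1a, Rbm10 (0.636%) and APC by less. In KLTC every target's median share lay between 4.91% (ATM) and 9.38% (APC), a narrow band beside the range over mice, which for Inert alone ran from 0.491% to 14.8%.

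When the target already deleted by the genotype took the place of Inert as the reference, that is Lkb1 in KLTC and P53 in KPTC, 9 targets could be compared. This alternative was added after the data were seen. None of the 9 size effects passed by permutation test (1 at an unadjusted p under 0.05), and APC had the largest difference, 0.68 (SE 0.23, adjusted p = 0.0858). Setd2 had a mean of 0.39 ± 0.71 over Lkb1 tumours in KLTC and of 0.72 ± 0.35 over P53 tumours in KPTC (adjusted p = 0.233). At the 99th percentile Setd2 (-1.87, adjusted p = 0.0013) and Rb1 (-1.40, adjusted p = 0.0035) still passed. Both were thus lower in KLTC against either reference at that percentile.

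The number of tumours of a target over the number of inert tumours, again as a log2 ratio per mouse, was higher in KLTC for Setd2, P53 and Lkb1. These 3 of 11 targets passed (27.3%), none was lower, and the median difference of all 11 was 0.02. Setd2 had -1.93 ± 0.31 in KLTC (from -2.74 to -1.54) and -2.33 ± 0.20 in KPTC (from -2.87 to -2.14), which is 0.262 and 0.198 Setd2 tumours per inert tumour. The difference was 0.40 (SE 0.10, adjusted p = 0.00462, permutation test), although the KLTC mice with IW names were at -2.08 and those with ZR names at -1.76. P53 had 0.362 tumours per inert tumour in KLTC and 0.317 in KPTC (difference 0.19, SE 0.05, adjusted p = 0.00462). Lkb1 had 0.323 and 0.292 (difference 0.14, SE 0.04, adjusted p = 0.015). For P53 and Lkb1 the difference was as large in IW mice alone (0.22 and 0.23, adjusted p = 0.0192 and 0.0288, exact), and for Setd2 it was 0.25 (adjusted p = 0.39, exact). None of the 3 passed without matched tumours (Setd2 0.17, P53 0.08, Lkb1 0.07), and Setd2 turned to -0.34 without the barcodes listed in 9-week mice. The filter on 9-week mice can remove only Setd2 and Inert tumours, because those mice were given no other vector. At a minimum of 1500 cells Setd2 passed (0.35), whereas P53 (0.11, adjusted p = 0.629) and Lkb1 (0.02, adjusted p = 0.929) did not. At 5000 cells none passed, with P53 at 0.13, and Setd2 (-0.27) and Lkb1 (-0.33) turned below 0. The number of vectors of each target in the pool is not in the table, so the ratio is read only between genotypes.

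Cells of a target over inert cells, the product of number and arithmetic mean size, passed for 0 of 11 targets (0%) by permutation test, while 2 had an unadjusted p below 0.05. The pair was Lkb1, at 0.247 cells per inert cell in KLTC and 0.428 in KPTC (log2 difference -0.80, SE 0.30, adjusted p = 0.0717), and APC, at 0.382 and 0.251 (0.61, SE 0.20, adjusted p = 0.0619). Without any one of KLTC replicates 3 or 5 or KPTC replicate 7, Lkb1 passed, at -0.95 to -0.88. APC passed without any one of KLTC replicates 1, 3 or 5 or KPTC replicates 2, 6 or 12, at 0.63 to 0.70.

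The share of all listed cells of a mouse held by each label differed for 1 of 12 labels (8.33%), which was APC. The shares are parts of 1 total per mouse, so the labels are not independent of each other. APC tumours held 5.46% to 13.5% (median 9.62%) of the cells of a KLTC mouse and 1.48% to 9.04% (median 5.25%) of those of a KPTC mouse. The means were 9.29% ± 2.29 and 5.71% ± 2.16, a difference of 3.58 percentage points (SE 0.891, adjusted p = 0.00852, permutation test). P53 tumours held 13.2% ± 11.95 and 6.98% ± 3.73, a wider difference of 6.24 points that did not pass (SE 3.49, adjusted p = 0.246). Inert tumours held 24.8% ± 7.86 and 22.5% ± 8.995. Lkb1 tumours held 6.33% ± 2.995 and 9.80% ± 4.34 (adjusted p = 0.168), Setd2 tumours 6.86% ± 2.42 and 8.67% ± 5.11, and Rb1 tumours 10.6% ± 7.73 and 11.3% ± 6.39.

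Single tumours set the widest of these spreads. P53 tumours held 48.6% of the cells of KLTC replicate 6, whose largest tumour, of 4.08e+07 cells, carried the P53 label and 43.4% of its cells. Cdkn2a tumours held 60.9% of KPTC replicate 8, where 1 Cdkn2a tumour of 1.02e+08 cells held 59.8%. Rb1 tumours held 34.6% of KLTC replicate 12, the mouse of the largest tumour. With the largest tumour of each label in each mouse left out, 3 labels passed: APC (10.4% and 7.12%), Lkb1 (7.002% and 12.4%, adjusted p = 0.00726) and P53 (8.84% and 5.75%, adjusted p = 0.0236). Without every barcode shared between mice the APC shares were 4.58% and 5.11% and the difference -0.52 did not pass (adjusted p = 0.549), while the adjusted p over all settings ran from 0.00504.

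**Figure D4:**
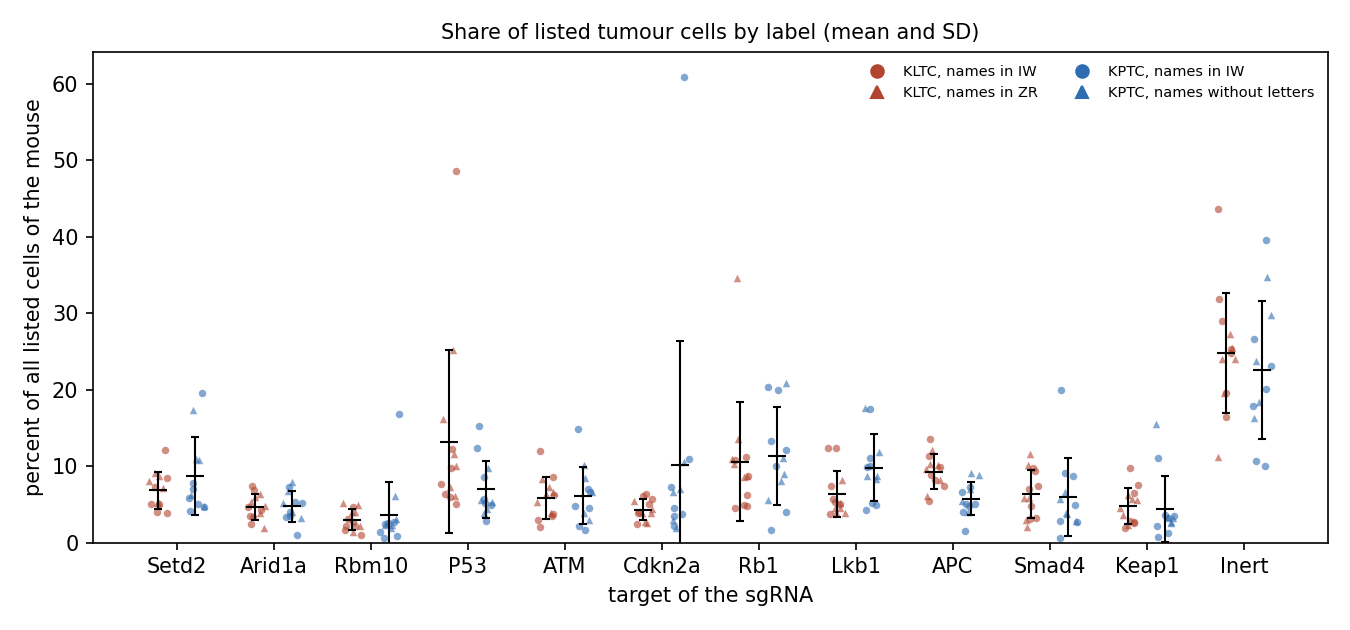
Percent of all listed cells of a mouse held by each label (vertical axis, horizontal axis by label), with 1 dot for each mouse and whiskers for mean and SD, of which any part below 0 is not drawn. APC is the label that passed (means of 9.29% and 5.71%), the difference of P53 is wider (13.2% and 6.98%) but did not pass, and single mice reach 48.6% for P53 and 60.9% for Cdkn2a.

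The makeup of the 100 largest tumours of each mouse was set against that of all its tumours. The median mouse listed 2856 tumours in KLTC and 10239 in KPTC, so the 100 largest reach further down the size range in KLTC. This excess, in percentage points, passed for 5 of 12 labels (41.7%): Lkb1 and Setd2 were lower in KLTC, and APC, Keap1 and Inert were higher. The excesses of the 12 labels add up to 0 in each mouse, so lower values of some labels must be offset by others. These calls are therefore not separate results. Lkb1 ran from -5.14 to 4.09 points (median -2.53) in KLTC mice, below 0 in 12 of 13, and from 0.655 to 15.9 points (median 5.09) in KPTC mice, above 0 in 12 of 12. Its means were -2.21 ± 2.39 and 6.42 ± 4.85, and the difference of -8.64 points (SE 1.55, adjusted p = 0.00012, permutation test) passed at every setting tried, down to the IW mice (-8.94, adjusted p = 0.0175, exact). Over all mice, Lkb1 tumours were 87 of the 1300 largest in KLTC and 177 of the 1200 largest in KPTC.

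Setd2 had an excess of 1.38 ± 3.04 points in KLTC and 6.69 ± 5.45 in KPTC (difference -5.31, SE 1.78, adjusted p = 0.0244). It did not pass in IW mice (-5.63, adjusted p = 0.121, exact permutation) or without matched tumours (-4.41, adjusted p = 0.0548). APC had 2.43 ± 2.17 points in KLTC, above 0 in 11 of 13 mice, and -0.82 ± 1.89 in KPTC, above 0 in 4 of 12 (difference 3.25, SE 0.813, adjusted p = 0.0045). Without every shared barcode the APC difference fell to 0.284 points (0.594 and 0.310, adjusted p = 0.812) and did not pass. Keap1 (0.389 and -1.59, difference 1.98) and Inert (-3.27 ± 5.66 and -9.07 ± 4.69, difference 5.80) had adjusted p of 0.0287 each. Inert tumours were rarer among the 100 largest than among all tumours in 12 of 12 KPTC mice and in 8 of 13 KLTC mice. Rb1, at 2.12 ± 3.41 and 5.89 ± 4.80 points, missed the threshold (difference -3.77, adjusted p = 0.0588) but passed without any one of KLTC replicates 10 or 11 or KPTC replicates 2, 8 or 12. Keap1 no longer passed without KLTC replicate 4 or 8 or KPTC replicate 1, nor Inert without KLTC replicate 4, 6 or 8 or KPTC replicate 3 or 9. Inert also did not pass in IW mice (adjusted p = 0.163, exact permutation) or without matched tumours (adjusted p = 0.0594), nor Keap1 without every shared barcode (adjusted p = 0.350).

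**Figure D5:**
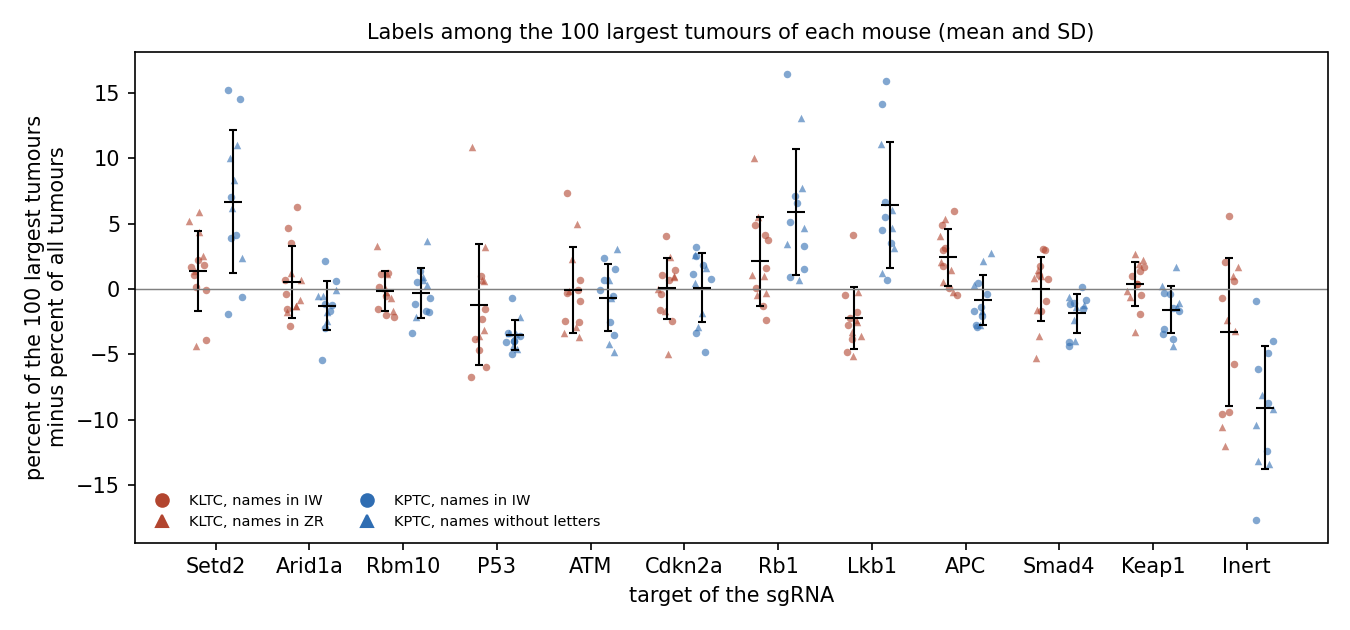
Percent of the 100 largest tumours of a mouse that carry each label minus the percent of all its tumours (vertical axis, in percentage points; horizontal axis by label), with 1 dot for each mouse and whiskers for mean and SD. All 12 KPTC points for Lkb1 lie above 0 and 12 of the 13 KLTC points below it, while for APC 11 of 13 KLTC points lie above 0.

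Among the 10 largest tumours of each mouse the counts were small. P53 carried 20 of 130 in KLTC and 8 of 120 in KPTC, Smad4 15 of 130 and 6 of 120, and Lkb1 6 of 130 and 14 of 120. The single largest tumour was Inert in 6 of 13 KLTC and 3 of 12 KPTC mice, P53 in 3 KLTC mice and 1 KPTC mouse, and Rb1 in 2 KLTC and 3 KPTC mice. Setd2, APC, Arid1a and Rbm10 were the largest in none of the 25 mice.

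How strongly cells were concentrated in the largest tumours differed by 1 of 4 measures. The largest 1% of tumours held 22.0% to 64.1% (median 33.5%) of the cells of a KLTC mouse and 46.9% to 88.2% (median 64.6%) of those of a KPTC mouse. The means were 40.7% ± 14.01 and 66.1% ± 12.8 (adjusted p = 0.00104, permutation test over 4 measures). The largest 10 tumours held 27.8% ± 11.6 and 39.0% ± 17.7 (adjusted p = 0.137, and passing without KLTC replicate 12 at -13.4 points). The largest 100 held 70.4% ± 14.2 and 65.3% ± 13.8. KLTC mice had fewer listed tumours, so 1% is a smaller number of tumours there.

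P53-labelled tumours in KLTC and Lkb1-labelled tumours in KPTC share the same pair of targeted genes, reached from either side. Their log-normal mean size ran from 1322 to 126852 cells (median 7091) in KLTC and from 1671 to 7095 cells (median 2773) in KPTC. The geometric means were 9593 and 2829 cells, 3.39-fold larger in KLTC (log2 difference 1.76, SE 0.57, p = 0.00541, permutation test of this 1 comparison). The IW mice of KLTC were at 11.95 ± 1.27 and the ZR mice at 14.72 ± 1.49 on the log2 scale, and within IW names the difference was 0.30 (p = 0.587, exact permutation). Without every shared barcode it was 0.49 (p = 0.218). The log-normal mean size of inert tumours was also larger in KLTC, with a median over mice of 7932 cells against 1823 in KPTC, which is given without a test. This compares absolute sizes, and the standard behind the cell numbers was not given in the sources used here.

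Target effects varied more from mouse to mouse in KLTC. The absolute deviation of a mouse from its genotype's median size effect was larger in KLTC for 9 of 11 targets (81.8%), and the difference was above 0 for all 11. Setd2 (0.379 and 0.288, adjusted p = 0.448) and Cdkn2a (0.371 and 0.159, adjusted p = 0.105) were the 2 that did not pass. Arid1a had the largest difference, with mean deviations of 0.639 in KLTC and 0.086 in KPTC (adjusted p = 0.00121, permutation test). The SD between mice of a target's effect was 0.585 in KLTC and 0.174 in KPTC, as the median over targets. The SE expected within a mouse from its own tumours was 0.384 and 0.0750, so KLTC values were also less precise, with a median of 222 APC tumours per mouse against 834 in KPTC. Within IW names none of the 11 passed by exact permutation, with 6 at an unadjusted p under 0.05. Lkb1 did not pass without any one of KLTC replicates 5, 9, 11 or 13, nor APC without any one of KLTC replicates 1, 2, 4, 9 or 11 or KPTC replicates 7, 9 or 12.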

How the data were processed

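The authors deposited 1 table of absolute tumour sizes in cells per mouse, target and barcode, made from ultra-deep sequencing of barcode amplicons per the labels' protocols. How reads were grouped into barcodes, what standard set the size scale and whether PCR bias was corrected was not given in the sources used here, and read depth is unknown, so the number of listed tumours per mouse stands for depth and no counting intervals were computed. The mice, targets, groups of genes and tests were chosen with earlier results of these data known.

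Tumours of at least 500 cells were used, as listed, with 2 repeated lines kept. The log-normal mean was exp(m + 0.5 v), where m and v are the mean and variance of the natural log of size, for targets with at least 10 tumours in the mouse. Percentiles, tumour numbers and cell sums were set over those of Inert in the same mouse, on the log2 scale. Every target was named, as the rule for named genes required, and replicate numbers follow the order of the samples and pair nothing. Differences of group means were tested by permuting the genotype labels of the mice (two-sided, 100000 resamples, for which 1e-05 is the smallest p, or all 3432 relabellings for 7 against 7), Benjamini-Hochberg adjusted within each kind of measure at 0.05. The SE is that of the difference of 2 means.

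Alternatives were minimum sizes of 1000, 1500, 5000 and 10000 cells, other size statistics, at least 30 tumours, IW names only, 2 filters on barcodes listed in other mice, leaving out the largest tumour of each label, 50 or 300 largest tumours, adjustment within a percentile, and leaving out each mouse in turn. Filters on barcodes of 9-week mice and the reference of the deleted target were added after the data were seen. Python 3.11.15 with numpy 2.4.6, pandas 2.3.3, scipy 1.17.1 and matplotlib 3.10.9 was used. Only the test of the log-normal mean size was tried on simulated data. These were tumours resampled from Inert, with all sizes of Setd2, Rb1 and Lkb1 multiplied in KPTC. Changes limited to the largest tumours, shared barcodes and the other measures were not simulated.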

Additional observations from a re-analysis of the deposited data

Results flagged for a closer look

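The effects listed here differed between KLTC and KPTC mice by the permutation test of the difference itself. On the log-normal mean size they were Setd2 (-0.57), Lkb1 (-0.67) and APC (0.45). Along the percentiles they were Setd2 at the 95th (-1.24) and 99th (-2.13), Lkb1 at the 95th (-1.03) and 99th (-2.21) and Rb1 at the 99th (-1.65). In tumour number over Inert they were Setd2 (0.40), P53 (0.19) and Lkb1 (0.14). Each value is KLTC minus KPTC on the log2 scale, and over all mice the inert tumours to which they refer differed 10.9-fold between the genotypes at their 99th percentile. That inert difference did not pass in IW mice, and its adjusted p reached 0.670 over the settings tried (permutation test).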

How the results depend on the processing

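Of 791 values recomputed under the alternatives other than leaving out a mouse, 560 kept their direction and their side of the threshold or moved by less than the spread. Of the others, 71 no longer passed, 33 newly passed, 16 turned sign and 111 moved further. For size effects (3 passing), 0 passed at a minimum of 10000 cells (3 at an unadjusted p under 0.05), 1 in IW mice, 1 without matched tumours, 0 without any shared barcode (2 unadjusted), 0 on the median (0 unadjusted), 6 on the 99th percentile and 0 against the target already deleted (1 unadjusted), all by permutation test. Setd2 turned to 0.14 without matched tumours. APC was -0.0153 on the median and -0.23 on the 99th percentile, where Arid1a (-0.78), Rbm10 (-1.01) and Cdkn2a (-1.16) also turned. For percentiles (5 passing), 12 passed at 1500 cells, 0 in IW mice (11 unadjusted), 11 without matched tumours, 8 adjusted within each percentile and 2 against the target already deleted. At 1500 cells the 95th percentile of Arid1a was -0.73, and at 5000 cells the 99th of Rb1 was 0.0233. For tumour number (3 passing), 1 passed at 1500 cells, 0 at 5000 cells (2 unadjusted, Cdkn2a at -0.26 and Lkb1 at -0.33, with Setd2 turned to -0.27) and 0 without matched tumours (2 unadjusted). Setd2 was -0.34 without barcodes of 9-week mice, a filter that can remove only Setd2 and Inert tumours. For cells over inert cells, 1 passed without the largest tumours. For cell shares (1 passing), 0 passed without shared barcodes (1 unadjusted, Lkb1 at -2.45, with APC turned to -0.52) and 3 without the largest tumours. Among the 100 largest tumours 3 of 12 labels passed without matched tumours. For concentration (1 passing), 2 passed at 5000 cells and 3 without shared barcodes, where the largest 10 tumours differed by 7.99 points. For inert sizes (4 passing), 0 passed in IW mice (3 unadjusted) and 2 without shared barcodes, and the size that 1 in 1000 exceed had differences of -0.12 at 5000 cells, -0.25 in IW mice and -0.48 without shared barcodes. The size of tumours with both genes targeted differed by 0.30 in IW mice and 0.49 without shared barcodes. For spread (9 passing), 3 passed at 1500 cells and 0 in IW mice (6 unadjusted). The cause of these changes was not tested. Leaving out each mouse in turn gave 0 to 2 labels passing for cells over inert cells, 3 to 7 for the 100 largest tumours and 1 to 2 for concentration, and changed no call for the size effects, tumour numbers, cell shares or the 5 percentile differences that passed. No paired analysis was possible because the labels carry no replicate numbers. Sizes under about 500 cells are not in the table, and tumour numbers limit the high percentiles in KLTC most.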

Other observations

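The order of the targets within single mice was also more even in KLTC. By log-normal mean size over Inert, Setd2 ranked first of the 11 targets in 6 of 12 KPTC mice and in 1 of 13 KLTC mice, and Rb1 was among the top 3 in 11 of 12 KPTC mice and in 7 of 13 KLTC mice. Lkb1 was among the top 3 in 7 KPTC mice and 1 KLTC mouse, and was last in 4 KLTC mice. APC ranked first in 4 KLTC mice and in 0 KPTC mice, although its median rank was 4 in KLTC and 4.5 in KPTC. P53 was last in 5 KPTC mice, with a median rank of 10. At the 99th percentile Smad4 ranked first in 4 KLTC mice and in 0 KPTC mice. These ranks restate the per-mouse effects and were not tested. The SE expected within a mouse was 0.384 in KLTC and 0.0750 in KPTC, as the median over targets, and less precise effects can also make ranks more even. How far this evened out the KLTC ranks was not tested.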
